A study of Mus musculus with 10 samples.

Results

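The genes described here were 8 genes of the complement system, taken by symbol from the 15900 genes with CAGE values: the C1q chain genes *C1qa*, *C1qb* and *C1qc*, the C4 gene *C4b*, the anaphylatoxin receptor genes *C3ar1* and *C5ar1*, and the regulator genes *Serping1* and *Cd59a*. All 8 were listed and all 8 passed the filter on low values. Whole hippocampi of 10 mice were analyzed by cap analysis of gene expression (CAGE), which counts the capped 5′ ends of transcripts, with 2 mice in each of 5 groups. All were male ICR (CD-1) mice, an outbred stock, and PILO was given at 9 to 10 weeks of age. The pre-SE mice are labelled untreated, and the control mice of the study received saline. The other groups received methyl scopolamine, then pilocarpine (PILO), a muscarinic agonist that induces status epilepticus (SE), defined by 5 generalized convulsive seizures and ended with diazepam. They were sampled 6 h after SE (SE 6 h and SE + LEV 6 h) or 2 days after SE (SE 2 days and SE + LEV 2 days). The LEV groups received the antiseizure drug levetiracetam (LEV) orally after diazepam, 1 time before the 6 h sampling and 5 times before the 2 days sampling. PILO, methyl scopolamine and diazepam were shared by the 4 SE groups, so their effects cannot be told apart from that of SE.

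Complement is a cascade of plasma and tissue proteins that marks targets for removal. C1q, assembled from A, B and C chains, starts the classical pathway through the proteases C1r and C1s, of which C1s cleaves C4 and C2. The cascade then releases the small fragments C3a and C5a, the anaphylatoxins, which act on the receptors encoded by *C3ar1* and *C5ar1*. In the brain, C1q is made mainly by microglia, and complement is known for its part in the removal of synapses and debris.

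The C1q genes lie side by side, so their promoters are shown first. In the mm9 genome annotation (GENCODE vM1), *C1qb* (chr4:136436044-136442102), *C1qc* (chr4:136445719-136448980) and *C1qa* (chr4:136451832-136454718) lie in this order on the minus strand, within 18675 bases and with gaps of 3617 and 2852 bases between them. *C4b* is at chr17:34865325-34880827, *C3ar1* at chr6:122797156-122806179, *C5ar1* at chr7:16832092-16844889 and *Serping1* at chr2:84605544-84615601, each on the minus strand. *Cd59a* is at chr2:103935958-103955511 on the plus strand, 4614 bases after its paralog *Cd59b*. No annotated gene overlaps any of the 8. Tags of *C4b* could be shared with the near-identical *C4a*, and tags of *Cd59a* with *Cd59b*, so their values are uncertain to that extent. *Cd59b* was listed separately, at 0.59 to 1.37 CPM. The RefSeq promoter table (GRCm38.p6) held 5 of the 8 genes, *C1qb*, *C1qc*, *C3ar1*, *C5ar1* and *Cd59a*. The bases before the RefSeq start of *C1qb* (chr4:136886201-136886450, minus strand), *C1qc* (chr4:136893066-136893164, minus strand) and *C3ar1* (chr6:122856162-122856407, minus strand) are shown 5′ to 3′ as examples of the genes that rose by 2 days and by 6 h, with matches to the searched motifs in capitals. The *C1qc* and *C3ar1* sequences stop where the transcript annotated in mm9 begins, 151 and 4 bases before the RefSeq start.
C1qb: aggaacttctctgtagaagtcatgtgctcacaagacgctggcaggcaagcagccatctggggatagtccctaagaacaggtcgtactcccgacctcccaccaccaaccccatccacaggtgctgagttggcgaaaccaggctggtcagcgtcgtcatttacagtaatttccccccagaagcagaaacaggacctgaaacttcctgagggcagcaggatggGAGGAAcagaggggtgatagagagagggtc
C1qc: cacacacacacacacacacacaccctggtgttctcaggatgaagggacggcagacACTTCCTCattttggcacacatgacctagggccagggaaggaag
C3ar1: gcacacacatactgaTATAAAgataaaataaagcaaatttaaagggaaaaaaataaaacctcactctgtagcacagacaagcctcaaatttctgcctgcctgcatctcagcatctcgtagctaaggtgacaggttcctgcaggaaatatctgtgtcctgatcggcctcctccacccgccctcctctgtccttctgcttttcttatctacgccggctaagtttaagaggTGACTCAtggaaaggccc

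The motifs were searched on both strands in the 250 bases before each RefSeq start. The letters GAGGAA, the core of sites of the myeloid factor PU.1, were found in *C1qb*, *C1qc* and *Cd59a*, and in 23.3% of all 32851 promoters of the table. In *C1qc* they lay on the other strand within the longer GAGGAAGT, which 2.44% of promoters hold. The AP-1 letters TGACTCA were found in *C3ar1* and in 4.46% of promoters, and TATAAA in *C3ar1* and in 12.4%. *Cd59a* held a match to an ISRE-like sequence, GAAA and GAAA with any 2 bases between, that 2.98% of promoters hold. TTCNNNGAA, a STAT type of sequence held by 7.02% of promoters, matched in none of the 5, and *C5ar1* held none of the 6 motifs. Of the 250 bases searched for *C5ar1*, only the first 48 lay before the transcript annotated in mm9. A match describes the letters and not a site in use.

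Values are given in CPM, in which the tags of a gene are scaled by its library's total, with replicate 1 before replicate 2. As 1 tag is counted per transcript start, a level does not depend on transcript length. The libraries held an estimated 10540698 to 51710968 tags on the listed genes, so that 3 tags were worth 0.058 to 0.285 CPM. Fold changes (logFC) are differences on the log2(CPM + 0.1) scale given ± the standard error of the fit, and a gene was called at a limma adjusted p of at most 0.05 over the 15851 genes tested. This scale understates changes of low genes. Nothing in the labels gives a library batch or date, and p-values measure the spread between these mice. All 8 hippocampal neuron markers were listed, with sums of at least 4156 CPM in every library. Summed choroid plexus markers (4 of 6 listed) differed within groups, from 8.37 to 66.2 CPM in 6 libraries and from 864 to 3991 CPM in the other 4, which were replicate 2 of pre-SE and of SE 6 h and replicate 1 of both SE + LEV groups. Their part in the results was not tested.

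Against pre-SE mice, *C3ar1* and *C5ar1* rose at 6 h after SE, while *C1qa*, *C1qb*, *C1qc* and *C4b* did not pass the test until 2 days, when they and both receptors rose by a logFC of 2.87 to 4.53. At 6 h, 2 of the 8 genes were called higher, where 2.76% of all genes tested were, and 0 were called lower, where 0.202% were. At 2 days, 7 of the 8 were called higher, where 5.07% of all genes were, and 0 lower, where 0.593% were. The median logFC of the 8 genes was 0.67 at 6 h and 2.90 at 2 days, beside -0.13 and -0.03 for all genes tested. Both SE mice lay above both pre-SE mice in 6 of the 8 genes at 6 h, as in 18.6% of all genes tested, and below them in 0, as in 31.3% of all genes. At 2 days this held for 7 of the 8 genes above (26.3% of all genes) and 1 below, *Cd59a* (25.6%). *Cd59a* was called in no comparison.

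**Figure D1:**
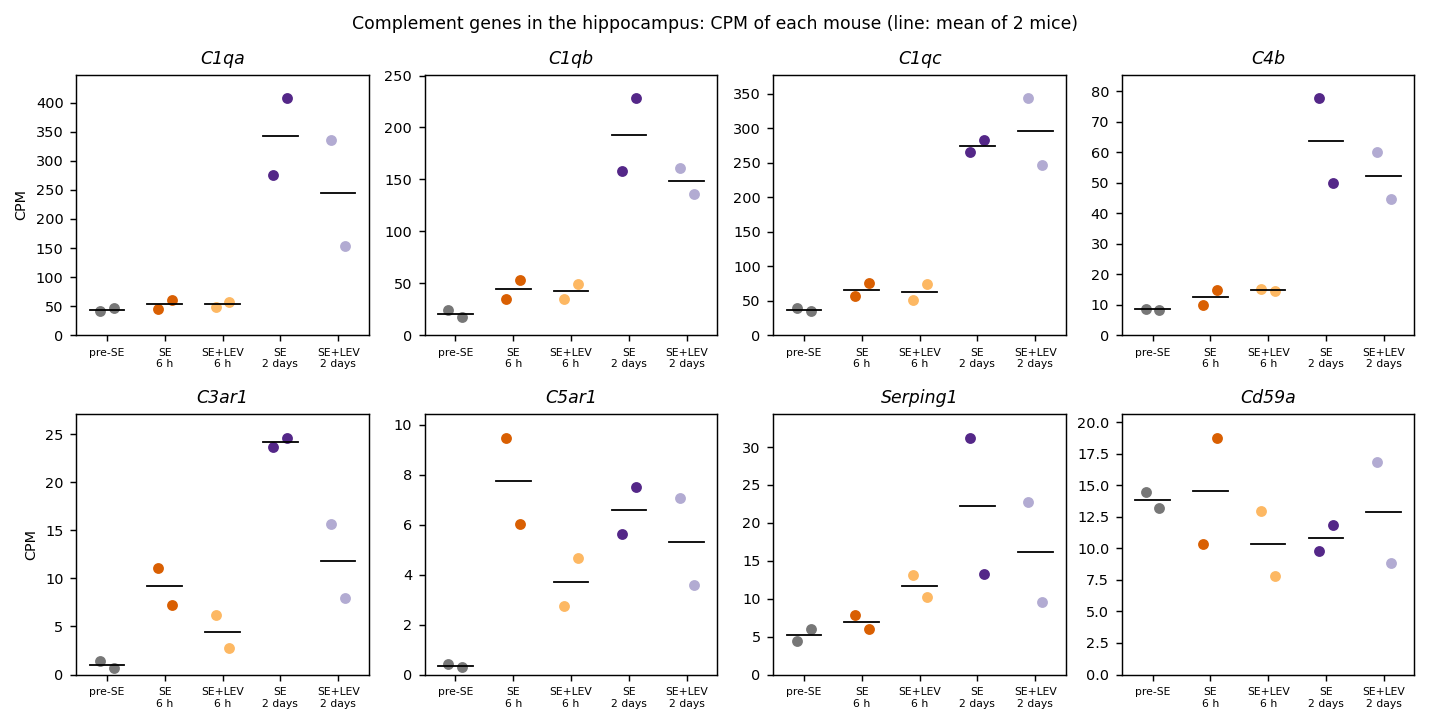
CPM (vertical axis, linear from 0) of each mouse for the 8 complement genes in the 5 groups, with a line at the mean of 2 mice. The C1q chain genes and *C4b* stand high in both 2 days groups, *C5ar1* is already at 6.03 and 9.49 CPM in SE 6 h mice, and the *Cd59a* points show no such rise, at 7.78 to 18.77 CPM over the 10 mice.

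The C1q chain genes encode the subunits of the recognition molecule, and microglia are their main known source in the brain. *C1qa* stood at 41.8 and 46.49 CPM before SE, 45.93 and 60.84 (SE) against 48.71 and 57.11 (SE + LEV) at 6 h, and 276.15 and 407.51 (SE) against 334.84 and 152.83 (SE + LEV) at 2 days. Both 2 days groups lay above every other mouse and overlapped each other. SE 2 days mice were 7.74-fold higher in mean CPM than pre-SE mice (logFC 2.93 ± 0.35, adjusted p = 0.0015), whereas the SE 6 h mice overlapped the pre-SE mice (logFC 0.26 ± 0.35, adjusted p = 0.74).

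*C1qb* stood at 24.11 and 17.21 CPM before SE, 34.61 and 53.65 (SE) against 35.22 and 49.62 (SE + LEV) at 6 h, and 158.06 and 228.16 (SE) against 161.33 and 135.5 (SE + LEV) at 2 days. Both 6 h groups lay above both pre-SE mice and below all mice of 2 days. The logFC of SE against pre-SE mice was 1.08 ± 0.31 at 6 h, which did not pass the test (adjusted p = 0.11), and 3.21 ± 0.31 at 2 days (adjusted p = 0.00092), a 9.35-fold higher mean CPM.

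*C1qc* stood at 39.04 and 35.18 CPM before SE, 57 and 75.44 (SE) against 51.57 and 73.52 (SE + LEV) at 6 h, and 265.63 and 282.56 (SE) against 343.37 and 247.18 (SE + LEV) at 2 days. The order of the groups was that of *C1qb* except that SE + LEV 2 days had the highest mean. The corresponding logFC values were 0.82 ± 0.26 (adjusted p = 0.14) at 6 h and 2.88 ± 0.26 (adjusted p = 0.00082) at 2 days.

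Summed over the chains, C1q stood at 104.9 and 98.88 CPM before SE, at 137.5 and 189.9 (SE) against 135.5 and 180.2 (SE + LEV) at 6 h, and at 699.8 and 918.2 (SE) against 839.5 and 535.5 (SE + LEV) at 2 days. The share of each chain in this sum stayed within limits over the 10 libraries, at 28.54 to 47.02% for *C1qa*, 17.4 to 28.25% for *C1qb* and 30.77 to 46.16% for *C1qc*. *C1qb* had the smallest share in every library. The lowest *C1qa* share, 28.54%, belonged to replicate 2 of SE + LEV 2 days, and the highest, 47.02%, to replicate 2 of pre-SE.

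**Figure D2:**
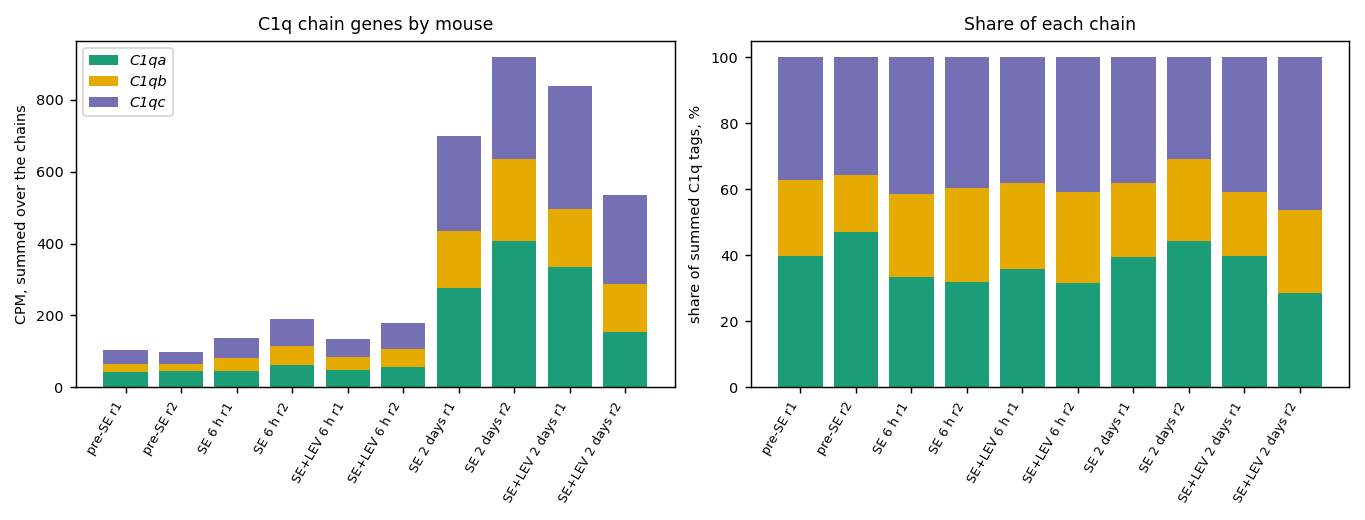
Left, CPM of *C1qa*, *C1qb* and *C1qc* stacked for each of the 10 mice. Right, the share (%) of each chain gene in that sum. The sums of 98.88 to 189.9 CPM in pre-SE and 6 h mice are followed by 535.5 to 918.2 CPM at 2 days, and *C1qb* has the smallest share in each mouse.

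The C1q genes and *C4b* were the genes of the 8 with a called difference between 2 days and 6 h. Against SE 6 h mice, the SE 2 days mice were higher by a logFC of 2.66 ± 0.35 for *C1qa* (adjusted p = 0.0044), 2.14 ± 0.31 for *C1qb* (adjusted p = 0.0061), 2.06 ± 0.26 for *C1qc* (adjusted p = 0.0037) and 2.34 ± 0.30 for *C4b* (adjusted p = 0.0039), and 3.14% of all genes were called higher and 1.11% lower there, beside 0 of the 8 lower. The *C1qb* call was lost without SE 6 h replicate 1 (adjusted p = 0.052) or SE 2 days replicate 2 (adjusted p = 0.059). In mice given LEV the same 4 genes were called between the times, with logFC values of 2.10, 1.82, 2.24 and 1.80 and adjusted p of 0.015, 0.016, 0.0049 and 0.016, beside 2.06% of all genes called higher and 0.0757% lower. Without SE + LEV 6 h replicate 1, SE + LEV 6 h replicate 2 or SE + LEV 2 days replicate 1, 1 of these 4 calls was left each time.

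*C4b* encodes C4, a substrate of the protease C1s, and astrocytes are a known source of it in the brain. Its levels were 8.66 and 8.24 CPM before SE, 10.01 and 14.87 (SE) against 15.05 and 14.52 (SE + LEV) at 6 h, and 77.68 and 49.96 (SE) against 59.92 and 44.73 (SE + LEV) at 2 days. The groups fell into the same order of times as C1q, with no overlap between pre-SE, 6 h and 2 days mice. Its logFC relative to pre-SE was 0.53 ± 0.30 (adjusted p = 0.39) at 6 h and 2.87 ± 0.30 (adjusted p = 0.0013) at 2 days after SE. Per 100 CPM of C1q, *C4b* was at 8.25 and 8.33 in pre-SE mice and between 5.44 and 11.1 in the SE groups, so the ranges overlapped.

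*C5ar1* encodes the receptor of C5a, which draws and activates myeloid cells. Before SE it stood at 0.41 and 0.31 CPM, which rested on 12 and 16 tags. At 6 h it reached 9.49 and 6.03 CPM (SE) against 2.76 and 4.65 (SE + LEV), and at 2 days 5.64 and 7.5 (SE) against 7.06 and 3.57 (SE + LEV). Every SE mouse, with or without LEV, lay above both pre-SE mice, and SE 6 h and SE 2 days mice overlapped. SE 6 h mice had a 21.6-fold higher mean CPM (logFC 4.07 ± 0.45, adjusted p = 0.0023) and SE 2 days mice an 18.2-fold higher mean (logFC 3.85 ± 0.45, adjusted p = 0.0014). Between the times the logFC was -0.22 ± 0.45, with a 95% interval from -1.21 to 0.78 (adjusted p = 0.82).

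*C3ar1* encodes the receptor of C3a. Its levels were 1.38 and 0.64 CPM before SE (40 and 33 tags), 11.13 and 7.26 (SE) against 6.18 and 2.75 (SE + LEV) at 6 h, and 23.62 and 24.65 (SE) against 15.61 and 7.97 (SE + LEV) at 2 days. The order from low to high was pre-SE, SE + LEV 6 h, SE 6 h, SE + LEV 2 days and SE 2 days, and of the neighbours in this order SE 6 h and SE + LEV 2 days overlapped. Its logFC relative to pre-SE was 3.12 ± 0.51 (adjusted p = 0.01) at 6 h and 4.53 ± 0.51 (adjusted p = 0.0013) at 2 days. The call at 6 h was lost without pre-SE replicate 2 (logFC 2.62, adjusted p = 0.079), without SE 6 h replicate 1 (2.81, adjusted p = 0.078) and without SE 6 h replicate 2 (3.42, adjusted p = 0.055). From 6 h to 2 days the receptor was higher in both mice (logFC 1.41 ± 0.51) without passing the test (adjusted p = 0.16).

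The receptors were also set against C1q as ratios within each mouse. *C5ar1* per 100 CPM of summed C1q was 0.391 and 0.314 before SE, 6.9 and 3.17 at 6 h, and 0.806 and 0.817 at 2 days in mice without LEV. For *C3ar1* the ratio was 1.31 and 0.647, 8.09 and 3.82, and 3.38 and 2.68 at the same times. Both ratios were highest in SE 6 h mice among the mice without LEV, with no overlap between these groups. In mice given LEV, *C5ar1* per 100 CPM of C1q was 2.04 and 2.58 at 6 h and 0.841 and 0.667 at 2 days, whereas for *C3ar1* the values of 4.56 and 1.53 at 6 h overlapped those of 1.86 and 1.49 at 2 days. The level of *C3ar1* was 3.37 and 2.06 times that of *C5ar1* before SE. It was 1.17 and 1.2 times at 6 h and 4.19 and 3.29 times at 2 days after SE. The pre-SE and SE 2 days mice overlapped in this ratio. With LEV it was 2.24 and 0.591 times at 6 h and 2.21 and 2.23 times at 2 days, which overlapped.

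**Figure D3:**
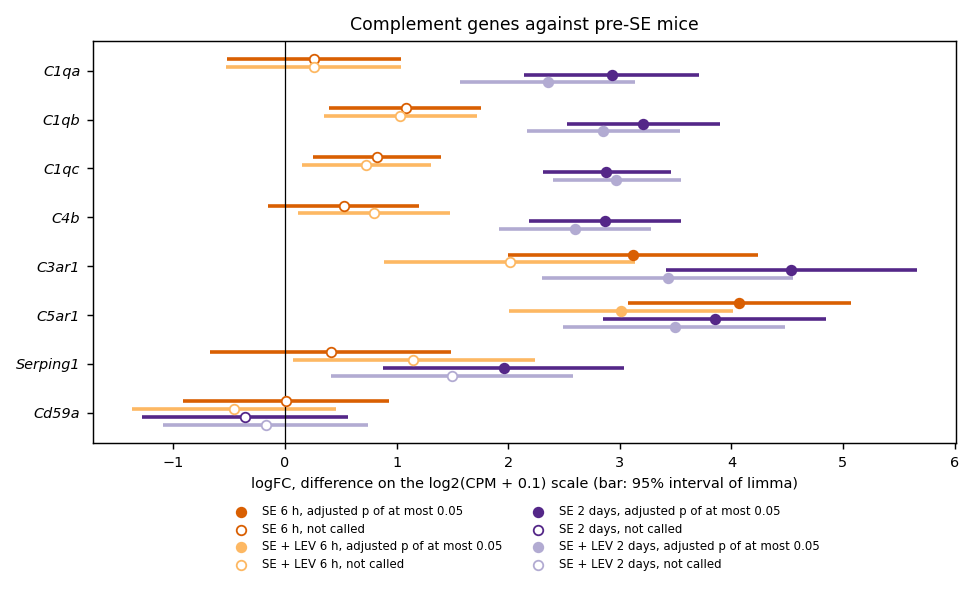
LogFC against pre-SE mice (horizontal axis, log2(CPM + 0.1) scale) of the 8 genes in the 4 SE groups, with 95% intervals of limma as bars and filled points for called genes. The filled points at 6 h are *C3ar1* and *C5ar1* in SE mice and *C5ar1* in SE + LEV mice, and the *Cd59a* intervals all include 0.

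*Serping1* encodes C1 inhibitor, which blocks C1r and C1s. Its levels were 4.45 and 5.98 CPM before SE, 7.89 and 6.03 (SE) against 13.12 and 10.25 (SE + LEV) at 6 h, and 31.25 and 13.23 (SE) against 22.7 and 9.57 (SE + LEV) at 2 days. The replicates at 2 days stood far apart in both groups. The logFC was 0.41 ± 0.49 (adjusted p = 0.70) at 6 h and 1.96 ± 0.49 (adjusted p = 0.045) at 2 days against pre-SE mice. That call was lost when any of 8 mice was left out, with adjusted p up to 0.25, and with a pseudocount of 0.5 (adjusted p = 0.052) or 1 (0.06), without the mean-variance trend (0.061) and in a fit of the 2 groups alone (0.056). Leaving out SE 2 days replicate 1, the higher mouse, gave a logFC of 1.34 (adjusted p = 0.19).

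*Cd59a* encodes an anchored membrane protein that blocks assembly of the membrane attack complex. Its levels were 14.45 and 13.21 CPM before SE, 10.3 and 18.77 (SE) against 12.93 and 7.78 (SE + LEV) at 6 h, and 9.75 and 11.85 (SE) against 16.87 and 8.87 (SE + LEV) at 2 days. Each group overlapped its neighbours in the order of levels, although both mice of SE 2 days and of SE + LEV 6 h lay below both pre-SE mice. The logFC of SE against pre-SE mice was 0.01 ± 0.41 (95% interval -0.91 to 0.93, adjusted p = 0.99) at 6 h and -0.36 ± 0.41 (-1.28 to 0.56, adjusted p = 0.70) at 2 days. Changes within these intervals were not excluded. Within the SE 6 h, SE + LEV 6 h and SE + LEV 2 days groups, the mouse with more *Cd59a* was the one with the higher sum of choroid plexus markers, at 3991 against 8.37, 864 against 38.9 and 1501 against 25.9 CPM, whereas in the pre-SE and SE 2 days groups it was the one with the lower sum, at 12.2 against 1699 and 22.7 against 66.2.

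Marker lists of cell types moved with these genes in part. As the tissue was analyzed whole, fewer cells of a type and less RNA per cell cannot be told apart. The 12 microglia markers, all listed, summed to 435 and 522 CPM before SE, 319 and 306 (SE) against 344 and 312 (SE + LEV) at 6 h, and 1012 and 1267 (SE) against 1399 and 1105 (SE + LEV) at 2 days, and none was at 0 in both mice of any group. At 6 h, 3 of the 12 were called lower (0.202% of all genes) and 0 higher (2.76%), when *C3ar1* and *C5ar1* were called higher. At 2 days, 4 of the 12 were called higher (5.07% of all genes) and 0 lower (0.593%). Of the infiltrating monocyte markers, 6 of 10 were listed, and their sum was 41.9 to 55.7 CPM before SE, 47.3 to 65.6 at 6 h and 165 to 379 at 2 days after SE without LEV, and 137 to 341 at 2 days with LEV, with *Ccr2* and *Ly6c2* not analysed here. The listed neutrophil markers, 3 of 9, summed to 0.59 to 1.62 CPM before SE, and without LEV to 6.23 to 6.7 at 6 h and 1.18 to 4.87 at 2 days. Border macrophage markers (5 of 6) summed to 4.09 to 7.01, 9.18 to 13.8 and 12.9 to 16.2 CPM in these groups. The 8 astrocyte markers summed to 2738 to 3278, 2778 to 3348 and 3837 to 5210 CPM. The higher sum at 2 days came mainly from *Gfap*, at a mean of 238 CPM before SE and 2960 CPM at 2 days, whereas 5 of the 8 had a lower estimate and the median logFC was -0.47. *Slc1a2*, the main glutamate transporter gene of astrocytes, was at a mean of 1520 CPM before SE and 797 CPM at 2 days. Of the 8 astrocyte markers, 2 were called higher at 2 days (5.07% of all genes), *Gfap* (logFC 3.60) and *Aqp4* (1.57), and 0 lower (0.593%). The 8 endothelial markers summed to 89.3 to 91.6, 138 to 202 and 137 to 165 CPM. The hippocampal neuron markers summed to 8739 and 8572 CPM before SE and to less in every SE mouse, at 7334 and 5191 (SE) against 7896 and 5551 (SE + LEV) at 6 h, and 5733 and 4156 (SE) against 5244 and 4666 (SE + LEV) at 2 days. All 8 had a lower estimate in SE 2 days than in pre-SE mice (median logFC -0.52, beside -0.03 for all genes tested). Of the 8, 0 were called lower (0.593% of all genes) and 0 higher (5.07%). In 4 of the 8 both SE 2 days mice lay below both pre-SE mice, as in 25.6% of all genes. The part of these lists in the complement values was not tested.

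No complement gene was called between SE + LEV and SE mice at either time. At 6 h, 0 of the 8 genes were called in either direction, where 0% of all genes tested were called higher and 0.0126% lower, and at 2 days 0 of the 8 and 0% of all genes were called. At an unadjusted limma p under 0.05, 1 of the 8 genes was lower at 6 h, *C5ar1*, beside 3.42% of all genes, and 0 were higher, beside 1.16%. At 2 days 0 of the 8 passed this limit in either direction, beside 1.31% of all genes higher and 1.39% lower. The LEV comparisons use the same SE mice as the comparisons with pre-SE mice above.

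Both receptors were lower in both SE + LEV mice at 6 h. *C5ar1* had a logFC of -1.06 ± 0.45 (95% interval -2.05 to -0.06, adjusted p = 1) and 0.477 times the mean CPM. *C3ar1* had a logFC of -1.10 ± 0.51 (-2.23 to 0.02, adjusted p = 1) at 6 h and -1.11 ± 0.51 (-2.23 to 0.02, adjusted p = 1) at 2 days, where both LEV mice again lay below both SE mice, with 0.489 times the mean CPM. Of all genes tested, 13.4% had both LEV mice below both SE mice at 6 h, as 2 of the 8 did, and 12.2% at 2 days, as 1 of the 8 did. *C5ar1* overlapped between the groups at 2 days (logFC -0.37, interval -1.36 to 0.63).

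For the C1q genes the intervals at 6 h were -0.79 to 0.78 (*C1qa*), -0.73 to 0.64 (*C1qb*) and -0.67 to 0.49 (*C1qc*), and the groups overlapped. At 2 days the logFC was -0.57 (-1.35 to 0.22) for *C1qa*, -0.36 (-1.05 to 0.33) for *C1qb* and 0.09 (-0.49 to 0.66) for *C1qc*. *C4b* differed by 0.27 (-0.40 to 0.95) at 6 h and by -0.27 (-0.94 to 0.41) at 2 days. *Serping1* was higher in both SE + LEV mice at 6 h (logFC 0.74, -0.34 to 1.82), as 16.1% of all genes were, and overlapped at 2 days, when 0 of the 8 and 15.2% of all genes lay above (-0.46, -1.54 to 0.62). *Cd59a* differed by -0.47 (-1.38 to 0.45) and 0.19 (-0.73 to 1.10) at these times. The difference between the LEV effects at 2 days and 6 h was called for 0 of the 8 genes, with estimates from -1.20 (*Serping1*, interval -2.73 to 0.33) to 0.69 (*C5ar1*, -0.72 to 2.10), beside 0% of all genes.

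**Figure D4:**
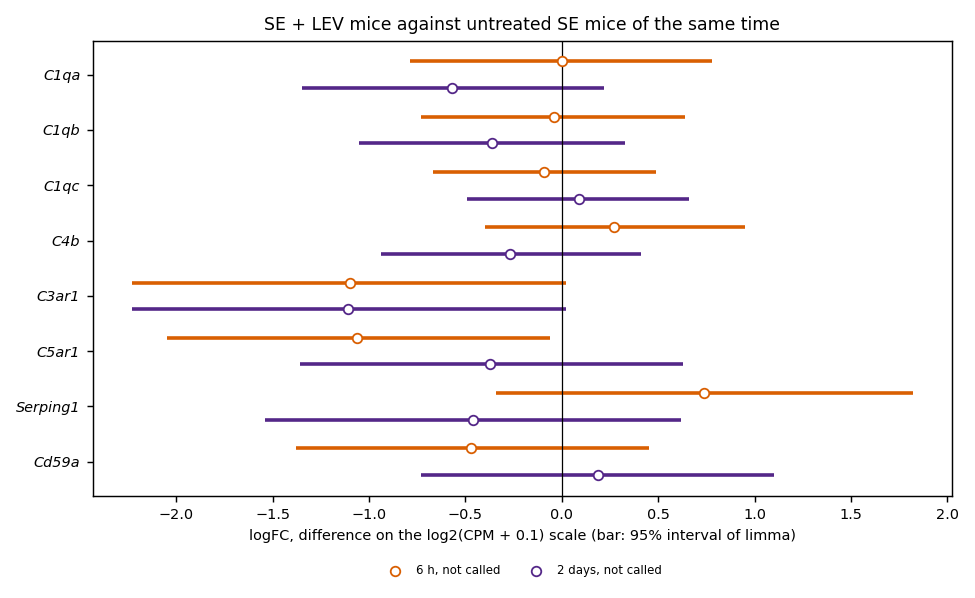
LogFC of SE + LEV against SE mice of the same time (horizontal axis, log2(CPM + 0.1) scale) for the 8 genes at 6 h and 2 days, with 95% intervals of limma as bars. All points are open, as no gene was called, and the estimates of *C3ar1* are -1.10 and -1.11 at the 2 times.

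Mice given LEV still differed from pre-SE mice. At 6 h, *C5ar1* was the 1 gene of the 8 called higher (logFC 3.01 ± 0.45, adjusted p = 0.028), where 0.315% of all genes were, and 0 were called lower (0.00631% of all genes). This call was lost with the replicate number as a block (adjusted p = 0.051), with pseudocounts of 0.5 (0.073) and 1 (0.13), in a fit of the 2 groups alone (0.11) and without any 1 of the 4 mice compared (0.12 to 0.17). *C3ar1* had a logFC of 2.02 ± 0.51 at that time (adjusted p = 0.18). At 2 days, 6 of the 8 genes were called higher, where 2.83% of all genes were, and 0 lower (0.0189% of all genes), with a logFC of 2.36 for *C1qa* (adjusted p = 0.0069), 2.85 for *C1qb* (0.002), 2.97 for *C1qc* (0.0011), 2.60 for *C4b* (0.0029), 3.43 for *C3ar1* (0.0066) and 3.49 for *C5ar1* (0.0039). *Serping1* was higher in both mice (logFC 1.50) and not called (adjusted p = 0.21). In a fit of these 2 groups alone all 6 calls were lost (adjusted p from 0.051 to 0.083). The *C1qa* call was also lost without pre-SE replicate 1 (0.053) and the *C3ar1* call without SE + LEV 2 days replicate 1 (logFC 2.95, adjusted p = 0.063).

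As a share of the log2 distance from the pre-SE mean to the SE mean, given where this distance was over 1, the 2 SE + LEV mice stood at 82.9% and 46.3% for *C3ar1*, 65% and 83% for *C5ar1* and 73% and 119% for *C1qb* at 6 h. The shares at 2 days were 86.2% and 65% for *C3ar1*, 103% and 78% for *C5ar1*, 99.9% and 61.2% for *C1qa*, 92.7% and 84.9% for *C1qb*, 111% and 94.9% for *C1qc*, 98% and 83.4% for *C4b*, and 108% and 44.9% for *Serping1*. In all 7 genes replicate 2 of SE + LEV 2 days was the lower of the pair.

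The other genes of the pathway were taken from a list of 50 symbols, of which 20 were listed. *C1ra* and *C1rb*, which encode C1r, had identical values in every library and were counted as 1 gene, so 19 were tested. *C3*, *C4a*, *C5ar2* and the terminal pathway genes were not analysed here. At 6 h after SE, 1 of the 19 was called higher, where 2.76% of all genes were, and 0 lower (0.202%). At 2 days 5 were called higher, where 5.07% of all genes were, and 0 lower (0.593%). The median logFC was 0.05 and 0.17, beside -0.13 and -0.03 for all genes tested. Between SE + LEV and SE mice, 0 of the 19 were called at either time, beside at most 0.0126% of all genes in either direction. At an unadjusted limma p under 0.05, 1 was higher at 6 h (1.16% of all genes) and 1 lower (3.42%). At 2 days 0 were higher (1.31% of all genes) and 0 lower (1.39%). The lower gene at 6 h stood at 1.67 and 0.14 CPM in SE 6 h mice and at 0 in every other library.

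Among the receptors, *Cd93*, a transmembrane lectin of endothelial and myeloid cells once described as a C1q receptor, stood at 2.48 and 3.29 CPM before SE, 18.6 and 31.04 at 6 h, and 10.6 and 22.45 at 2 days. It was called at both times (logFC 3.03 ± 0.48, adjusted p = 0.0099, and 2.39 ± 0.48, adjusted p = 0.018). *Itgb2*, the beta chain of complement receptors 3 and 4, stood at 1.93 and 1.97, 3.82 and 4.66, and 16.15 and 16.76 CPM at these times, and was called at 2 days (logFC 3.01 ± 0.32, adjusted p = 0.0013). *Itgax*, the alpha chain of receptor 4, rose at 2 days (logFC 2.31 ± 0.50, adjusted p = 0.026) from 0.34 and 0.12 CPM to 1.74 and 1.19 CPM. *Itgam*, the alpha chain of receptor 3, had a logFC of -0.67 (adjusted p = 0.49) at 6 h and 1.53 (adjusted p = 0.10) at 2 days.

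Of the proteases, *Cfb*, factor B of the alternative pathway, rose at 2 days (logFC 3.39 ± 0.62, adjusted p = 0.011), from 0.03 and 0.04 CPM before SE to 1.65 and 1.05 CPM. Its pre-SE values stood for 1 and 2 tags, so that this logFC depends on the pseudocount. *C1ra*, called at 2 days (logFC 1.76 ± 0.41, adjusted p = 0.036), stood at 1.41 and 0.85 CPM before SE and 4.66 and 3.34 CPM at that time. It is the fifth called gene of this list and falls outside the rule for named genes, having been chosen after its values were seen. Among the regulators, *Cr1l*, a membrane regulator of C3 convertases, had a logFC of -0.62 (adjusted p = 0.27) and -0.36 (adjusted p = 0.52), and *Cd59b* of -0.39 (0.72) and -0.08 (0.95), at 6 h and 2 days.

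**Figure D5:**
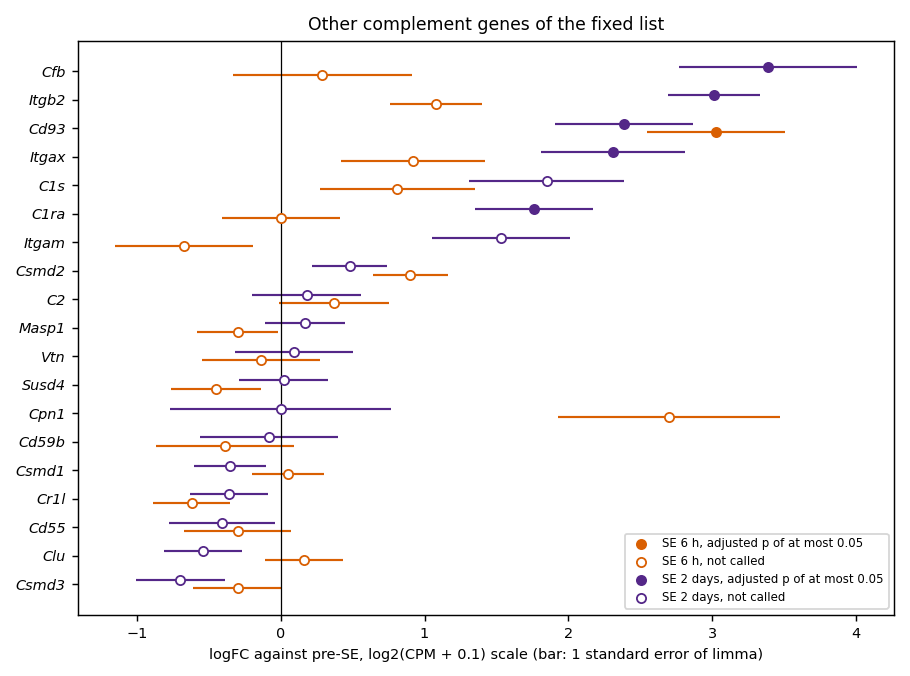
LogFC of SE against pre-SE mice (horizontal axis, log2(CPM + 0.1) scale) for the 19 other complement genes at 6 h and 2 days, with 1 standard error of limma as bars and filled points for called genes. The 5 filled points at 2 days are *Cfb*, *Itgb2*, *Cd93*, *Itgax* and *C1ra*, and *Cd93* is the 1 filled point at 6 h.

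Over the 10 libraries, which share their groups, the log2(CPM + 0.1) values of the C1q genes had Pearson r of 0.95 to 0.98 with each other and 0.95 to 0.98 with *C4b*. *C3ar1* and *C5ar1* had an r of 0.88 with each other, and *C5ar1* of 0.51 to 0.68 with the C1q genes. *Cd59a* had r between -0.21 and -0.04 with the other 7 genes. Among 14115 genes with a mean of at least 1 CPM, the genes most like the mean of the C1q genes were *Fcer1g* (r = 0.990), *Gfap* (0.987), *Cd151* (0.986), *Ska1* (0.986) and *Itgb2* (0.986). *Fcer1g*, the common gamma chain of Fc receptors, went from 11.73 and 11.25 CPM before SE to 93.28 and 108.99 CPM at 2 days, and *Gfap*, an astrocyte filament gene, from 245.62 and 230.22 to 2281.84 and 3642.11 CPM. Most like *C4b* were *Trim30a* (0.995), *Irf7* (0.991) and *Lgals9* (0.987). *C3ar1* was most like *Tlr2* (0.973), *Capg* (0.973) and *Plin2* (0.972), and *C5ar1* most like *Fam129b* (0.973), *Tnfrsf1a* (0.958) and *Fosl1* (0.956). The corresponding genes were *Gpr182* (0.948), *Haus2* (0.939) and *Irgm1* (0.921) for *Serping1*, and *Ubxn10* (0.879), *Mkrn1* (0.842) and *Bcl2l1* (0.834) for *Cd59a*.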

How the data were processed

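The authors mapped the CAGE tags of 10 hippocampi, 1 per mouse, to mm9 with BWA 0.7.17 and, for unmapped tags, HISAT2 2.0.5 (versions also per the submitters' processing notes), and clustered with RECLU, discarding clusters under 0.1 CPM. The authors deposited 1 CPM value per gene and mouse, rounded to 2 decimals. How clusters were summed to genes and whether strand was used are not given in the sources used here. Groups were taken from the labels, and 0 columns were set aside. Library totals were estimated from the lowest range of totals at which nearly all low CPM values were whole numbers of tags within rounding. The range was then narrowed with higher values and with the sum of the tags. At the totals found, 100% of values were whole numbers of tags within rounding. A check of the unit did not accept the recovered tags in most libraries, so totals and tag numbers are estimates.

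All 10 libraries entered 1 limma 3.58.1 fit (R 4.3.3) on log2(CPM + 0.1) with 5 group means and a mean-variance trend, with two-sided tests. P-values were adjusted by Benjamini-Hochberg over 15851 genes that reached 0.1 CPM in 2 or more libraries. The code was tested on simulated data. Python 3.11.15 with pandas 2.3.3, numpy 2.4.6 and matplotlib 3.10.9 made the tables and figures.

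The 8 genes, the list of other complement genes and the marker lists were chosen with earlier results of these data known. Besides the 8, the text names up to 4 called genes of the other complement list per direction with the largest logFC at each time, *Cr1l*, *Cd59b* and *Itgam*, and the 5 (C1q) or 3 genes with the highest Pearson r. Some items under this rule are not reported here. Alternatives were pseudocounts of 0.01, 0.5 and 1, no filter, a filter at 1 CPM in 2 libraries, rescaling by median of ratios, the replicate number as a block, no trend, fitting the compared groups alone, and each mouse left out in turn.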

Additional observations from a re-analysis of the deposited data

Results flagged for a closer look

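The effect of SE differed between 2 days and 6 h, by a test of SE 2 days against SE 6 h mice, for *C1qa* (2.66 higher on the log2(CPM + 0.1) scale at 2 days), *C1qb* (2.14), *C1qc* (2.06) and *C4b* (2.34). Both SE 2 days mice lay above both SE 6 h mice for each of these genes, and both times were set against the same pre-SE mice. *C3ar1* (1.41, adjusted p = 0.16) and *C5ar1* (-0.22, adjusted p = 0.82) did not pass this test.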

How the results depend on the processing

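The counts of called genes among the 8 were 2 (SE 6 h) and 7 (SE 2 days) against pre-SE, 1 (SE + LEV 6 h) and 6 (SE + LEV 2 days) against pre-SE, 0 for SE + LEV against SE at both times, and 4 between the times with and without LEV. The count for SE + LEV 6 h fell to 0 with pseudocounts of 0.5 and 1, with the replicate number as a block and in a fit of only the groups compared, which also gave 0 for SE + LEV 2 days against pre-SE and 2 for SE + LEV 2 days against SE + LEV 6 h. With each mouse left out in turn, the counts were 1 to 2 for SE 6 h against pre-SE, 0 to 1 for SE + LEV 6 h against pre-SE, and 1 to 4 for SE + LEV 2 days against SE + LEV 6 h. Some of these fits also lost the call of *Serping1* in SE 2 days against pre-SE and that of *C1qb* against SE 6 h. Others lost those of *C1qa* and *C3ar1* in SE + LEV 2 days against pre-SE. The *Serping1* call was also lost under other alternatives, as given above. With a mouse left out, the lone mouse of its group was assumed to vary like the other groups. The cause of these changes was not tested, and such fits hold fewer mice.

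The replicate number pairs different animals, with correlations of same-numbered deviations from -0.44 to 0.34, and the block changed no call of the 8 genes other than that of *C5ar1* in SE + LEV 6 h against pre-SE (logFC 3.01, adjusted p = 0.051). With the numbers crossed in SE + LEV 2 days, added after the data were seen, the counts were 0 against SE 2 days and 6 against pre-SE.

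Over the 8 genes, 1292 of 1368 values under an alternative kept direction and side of the threshold, 44 lost the call and 32 changed sign. None of the 32 was a called value. The estimate for *C3ar1* of the LEV effect at 2 days against 6 h, -0.00, became 0.01 with a pseudocount of 0.01 and with median-of-ratios rescaling. The other changes of sign came from leaving out 1 mouse, with these ranges. For SE 6 h against pre-SE, *Cd59a* ran from -0.42 to 0.44. For SE + LEV 6 h against SE 6 h, *C1qa* ran from -0.21 to 0.2, *C1qb* from -0.36 to 0.27, *C1qc* from -0.35 to 0.16 and *C4b* from -0.01 to 0.56. For SE + LEV 2 days against SE 2 days, *C1qc* ran from -0.15 to 0.33, *C4b* from -0.58 to 0.05, *C5ar1* from -0.85 to 0.12, *Serping1* from -1.08 to 0.16 and *Cd59a* from -0.27 to 0.65. *Cd59a* ran from -0.63 to 0.29 for SE + LEV 2 days against pre-SE. For SE 2 days against SE 6 h, *C5ar1* ran from -0.54 to 0.11 and *Cd59a* from -0.8 to 0.06. For SE + LEV 2 days against SE + LEV 6 h, *C5ar1* ran from -0.01 to 0.96, *Serping1* from -0.27 to 0.96 and *Cd59a* from -0.18 to 0.74. For the LEV effect at 2 days against 6 h, *C1qa* ran from -1.13 to 0.00, *C1qc* from -0.08 to 0.43 and *C3ar1* from -0.57 to 0.57.

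Rescaling moved the median of all genes in SE 6 h against pre-SE mice from -0.13 to -0.00. edgeR and DESeq2, planned on recovered tags, were not run. Every value was a whole number of tags within rounding, but a check of the unit did not accept the recovered tags in most libraries. Depth bears on values that rest on few tags, such as *C5ar1* (12 and 16 tags) and *Cfb* (1 and 2 tags) in pre-SE mice.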
